A study of Rattus norvegicus with 3 samples.

Results

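This account follows 7 genes that report position in the rat brainstem and cerebellum: Hoxa2, Neurod1, Neurod2, Gabra6, Ppp1r17, Pcp2 and Car8. They were chosen by name, with earlier results of these data known, as a sign of how the dissection differed between arrays. Their ranks and shares among all probes are therefore descriptions only. Every array probe whose RefSeq accession belongs to one of the 7 genes was taken. That gave 1 probe each for 6 of the 7 genes, of 41012 probes and 8899 named genes in all. Pcp2 matched no probe and is named only.

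RNA from the vestibular nuclei, which receive balance signals from the inner ear, was measured on 3 Agilent 1-colour arrays after labelling with Cy3. The groups were sham-operated control rats, rats 1 day after left labyrinthectomy, in which the inner ear's balance organ is taken out, and rats 7 days after it, with nuclei of the operated side collected at both times. All animals were adult Sprague-Dawley males weighing 200 to 250 g, with no transgene or mutation named. The labels' protocols name 3 rats per group, since 1 animal did not yield enough RNA, which reads as tissue pooled on each array. The controls are sham-operated by label and normal by protocol, and which of their sides was dissected is not stated. Each group had 1 array, so no difference below has an error from animals or dissections, and none was tested.

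The vestibular nuclei lie in the dorsal hindbrain under the cerebellum, next to the cochlear nuclei, the choroid plexus of the fourth ventricle and the cranial motor nuclei. Hox genes are homeodomain transcription factors whose nested domains along the embryonic axis set the identity of hindbrain segments, and part of that pattern persists in adult neurons. Granule cells and Purkinje cells are the main excitatory and the output neurons of the cerebellar cortex, and genes that mark them are used to judge how much cerebellum came along with a sample of the hindbrain.

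The 6 probes showed no common pattern. At day 7, Hoxa2 and Neurod2 were far dimmer than in sham, whereas Ppp1r17 was brighter. At day 1 none of the 3 probes that could be compared with sham differed by 2-fold. Neurod1 and Car8 gave dim signals in sham and none well above background after surgery, and Gabra6 was not well above background on any array. Each of the 6 probes lay on 1 spot, so within an array the error given is that of the scanner software for that spot. Values are processed intensities, and log2 values are relative to the array's own 75th percentile of non-control spots, which came to 5692 in sham, 5242 at day 1 and 5676 at day 7.

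The upstream sequences of the 3 genes whose probes differed most from sham at day 7 are given to show the loci behind those probes. They are the 250 bases before the gene start, 5′ to 3′ on the gene's own strand, from RefSeq on GRCr8, and capitals mark each E-box, CANNTG, the kind of site that NeuroD factors bind. These coordinates place the gene and not the probe, whose own position was not used here. Hoxa2 is at chr4:82595693-82595942 on the minus strand, Neurod2 at chr10:83824278-83824527 on the minus strand and Ppp1r17 at chr4:86543871-86544120 on the plus strand.
Hoxa2: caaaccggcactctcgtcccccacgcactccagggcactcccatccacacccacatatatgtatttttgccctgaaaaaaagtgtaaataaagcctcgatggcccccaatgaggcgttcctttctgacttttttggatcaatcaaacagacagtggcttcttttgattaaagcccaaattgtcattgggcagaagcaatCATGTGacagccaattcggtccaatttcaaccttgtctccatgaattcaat
Neurod2: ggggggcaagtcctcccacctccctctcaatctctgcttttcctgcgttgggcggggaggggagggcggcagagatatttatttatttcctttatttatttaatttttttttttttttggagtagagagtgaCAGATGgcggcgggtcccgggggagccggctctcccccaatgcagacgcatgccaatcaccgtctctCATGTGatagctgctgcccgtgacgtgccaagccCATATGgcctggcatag
Ppp1r17: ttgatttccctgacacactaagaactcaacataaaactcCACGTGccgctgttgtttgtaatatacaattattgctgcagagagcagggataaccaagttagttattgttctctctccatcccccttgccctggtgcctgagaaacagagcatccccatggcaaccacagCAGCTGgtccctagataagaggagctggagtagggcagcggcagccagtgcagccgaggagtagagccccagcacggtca

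Motifs were searched on both strands, and a match is a description of the letters. CANNTG occurred 1 time before Hoxa2, 3 times before Neurod2 and 2 times before Ppp1r17, and 65.5% of 33469 rat upstream windows of this length hold at least 1. CAGATG, which is a case of CANNTG, occurred 1 time before Neurod2 and not in the other two windows, against 14.0% of all windows. TGATTGAT, a motif of Hox and Pbx factors, occurred 1 time before Hoxa2 (on the opposite strand, in lower case above) and not in the other two windows, against 0.690% of all windows. The homeodomain core TAATTA, present in 4.86% of all windows, was in none of the 3. The G and C content was 45.2% before Hoxa2, 54.0% before Neurod2 and 51.6% before Ppp1r17.

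**Figure D1:**
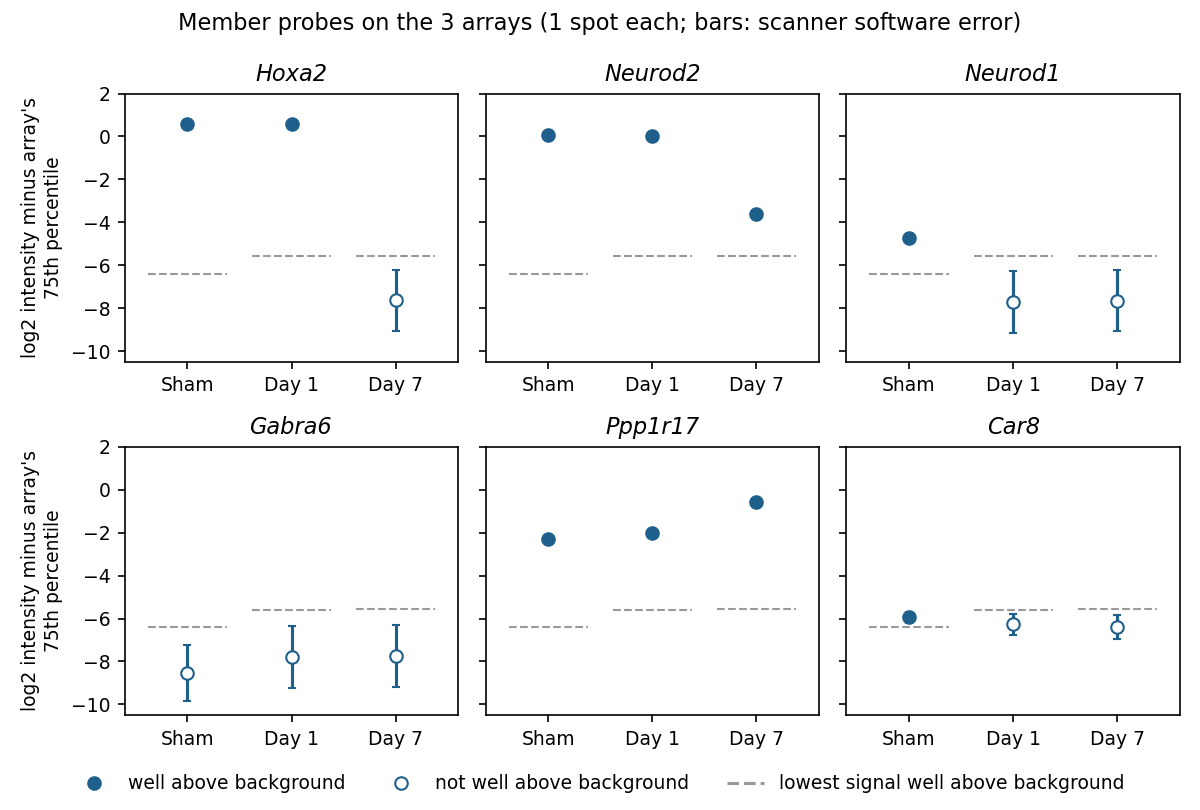
Log2 processed intensity minus the array's 75th percentile (y axis) for the 6 member probes on the sham, day 1 and day 7 arrays (x axis), 1 spot per array. Filled points were well above background and open points were not, bars are the scanner software's error (hidden behind bright points), and dashes mark the lowest signal well above background on that array. Hoxa2 and Neurod2 are low at day 7 only, Ppp1r17 is highest at day 7, and Gabra6 is open on all 3 arrays.

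Hoxa2 encodes a homeodomain transcription factor of the hindbrain and is the only Hox gene among the 7. Its processed intensity came to 8478 ± 848 in sham, 7851 ± 785 at day 1 and 28.5 ± 28.4 at day 7 (spot error of the software). The sham and day 1 signals were thus nearly equal and bright, and the day 7 value was about as large as its own error. On the log2 scale relative to the 75th percentile these were 0.57, 0.58 and -7.64, so that 79.8% of probes were dimmer than Hoxa2 in sham, 79.9% at day 1 and 9.63% at day 7.

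At day 1 against sham the log2 difference of Hoxa2 was 0.0079 ± 0.20, an error that covers the 2 spots only. At day 7 the probe was not well above background, so the difference is a bound: Hoxa2 was at least 69.5-fold lower at day 7 than in sham. Against day 1 it was at least 69.9-fold lower at day 7, where 5.07% of 30825 probes had lost and 4.72% of 30671 had gained a signal well above background. Probes well above background in sham and not at day 7 made up 8.1% of 32297 (2.9% of 30687 went the other way), and in the ranking of such bounds Hoxa2 had the 5th largest bound of 2624. Of 10264 probes brighter than the 75th percentile in sham, 5 were not well above background at day 7 (0.0487%): Hoxa2, Inpp5d (a phosphatase gene named here after its value was seen) and 3 unnamed probes.

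The spot itself gave no flag at day 7. It was not marked as an outlier, and its local background was 43.0 against 40.0 to 51.0 at the 41 neighbouring spots (within 4 rows and 2 columns). The 28 of these neighbours that were measured on both arrays had a median log2 difference of 0.17 at day 7 against sham, with a range of -1.16 to 2.94, and 1 of them was at least 2-fold lower. A neighbour that fell to background at day 7, as Hoxa2 did, could not be among these 28. They therefore cannot show whether such a loss was local. Background-subtracted signal of Hoxa2 was -11.4 at day 7, against 8052 in sham. Whether the tissue, the RNA or this single spot differed was not tested, and in tissue samples fewer cells of a type and less RNA per cell cannot be told apart.

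Few other Hox probes were at hand. Of 39 Hox genes listed, 3 matched a probe. Hoxb7, a more posterior Hox gene, had intensities of 3780 in sham, 7151 at day 1 and 5663 at day 7, with log2 differences of 1.04 at day 1 and 0.59 at day 7 against sham. Hoxb7 was thus higher at day 7 than in sham, while Hoxa2 was lower.

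Neurod2 encodes a basic helix-loop-helix factor of differentiated excitatory neurons, present in cerebellar granule cells and in forebrain neurons. Its intensity came to 5944 ± 595 in sham, 5235 ± 524 at day 1 and 469 ± 54.2 at day 7. It was bright on the first 2 arrays and dim, although well above background, on the day 7 array. At day 1 against sham its log2 difference was -0.064 ± 0.20. At day 7 it was -3.66 ± 0.22 against sham, which is 12.6-fold lower, and -3.60 ± 0.22 against day 1, which is 12.1-fold lower.

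Over all probes, 5.7% of 29608 were at least 2-fold lower at day 7 than in sham and 10.8% at least 2-fold higher. Under other scalings the share of higher probes among those past 2-fold was between 53.7% (median scaling) and 65.1% (no scaling), instead of 65.5%. At day 1 against sham it was between 54.3% (no scaling) and 57.3% (cyclic loess) instead of 66.5%, and at day 7 against day 1 between 49.9% (cyclic loess) and 63.8% (no scaling) instead of 53.2%. Counting Neurod2, 41 probes (0.138%) were as low as Neurod2 or lower. Among 3610 probes within 0.5 log2 of its sham level, 6.18% were at least 2-fold lower. The 28 measured neighbouring spots had a median difference of -0.14 and a lowest value of -0.996, none of them 2-fold lower, and the local background of 51.0 lay within the 47.5 to 67.0 of the neighbours.

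Neurod1, a relative of Neurod2 that granule cells and their precursors express, gave a weak signal. Its intensity came to 215 ± 27.5 in sham, 24.8 ± 24.7 at day 1 and 28.4 ± 28.2 at day 7. It was well above background in sham only, and both later values were about as large as their errors. The detection limit, taken as the lowest signal called well above background, was 66.9 on the sham array, 109 on the day 1 array and 122 on the day 7 array, lowest in sham. Neurod1 was at least 1.81-fold lower at day 1 and at least 1.76-fold lower at day 7 than in sham. At day 1, 7.35% of 32272 probes well above background in sham were no longer so, and the bound of Neurod1 ranked 501 of 2405 at day 1 and 688 of 2624 at day 7.

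Gabra6 encodes the alpha-6 subunit of the GABA-A receptor, which is largely restricted to granule cells of the cerebellum and of the cochlear nucleus. Its intensity came to 15.5 ± 13.8 in sham, 23.6 ± 23.6 at day 1 and 26.6 ± 26.5 at day 7. It was not well above background on any of the 3 arrays, so no order of these values is given and no fold. A probe that is dim on all arrays says nothing about granule cells in the tissue.

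Ppp1r17 encodes G-substrate, a phosphatase inhibitor that Purkinje cells express. Its intensity came to 1151 ± 116 in sham, 1316 ± 134 at day 1 and 3797 ± 381 at day 7. The day 7 value was the highest and the other two differed little. The log2 difference was 0.31 ± 0.21 for day 1 minus sham, 1.73 ± 0.21 for day 7 minus sham (3.31-fold higher) and 1.41 ± 0.21 for day 7 minus day 1 (2.66-fold higher). Counting Ppp1r17, 861 of 29608 probes (2.91%) were as high or higher at day 7 against sham, and 9.83% of 3958 probes of like sham level were at least 2-fold higher. Among its 32 measured neighbouring spots, 10 were at least 2-fold higher at day 7 than in sham and none was 2-fold lower, with a median of 0.28. The part of slide position in the difference of Ppp1r17 was not tested.

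Car8 encodes a carbonic anhydrase relative without enzyme activity that binds the IP3 receptor and is abundant in Purkinje cells. Its intensity came to 92.2 ± 16.6 in sham, 67.7 ± 23.5 at day 1 and 67.3 ± 26.2 at day 7. It was well above background in sham only, and the ranges given by the spot errors overlapped. No bound above 1 can be given, because the sham signal was below the lowest signal well above background on the later arrays. Pcp2, a modulator of G proteins in Purkinje cells, matched no probe.

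Taking the 6 probes together, 3 could be compared at day 1 against sham. None of these was 2-fold higher or lower, against 7.64% and 3.85% of all 29846 probes, and the median was 0.0079 against 0.026 over all probes. At day 7 against sham, 2 could be compared, 1 higher and 1 lower, against 10.8% and 5.7% of all probes. Their median of -0.97 lies between values of opposite sign and describes neither. At day 7 against day 1 the same pair was again 1 higher and 1 lower, against 6.35% and 5.57% of 29133 probes, with a median of -1.09. Of the 4 probes left out against sham at day 7, 3 were well above background in sham only and 1 on neither array. A count over the probes that could be compared therefore leaves out Hoxa2, the member with the largest bound.

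**Figure D2:**
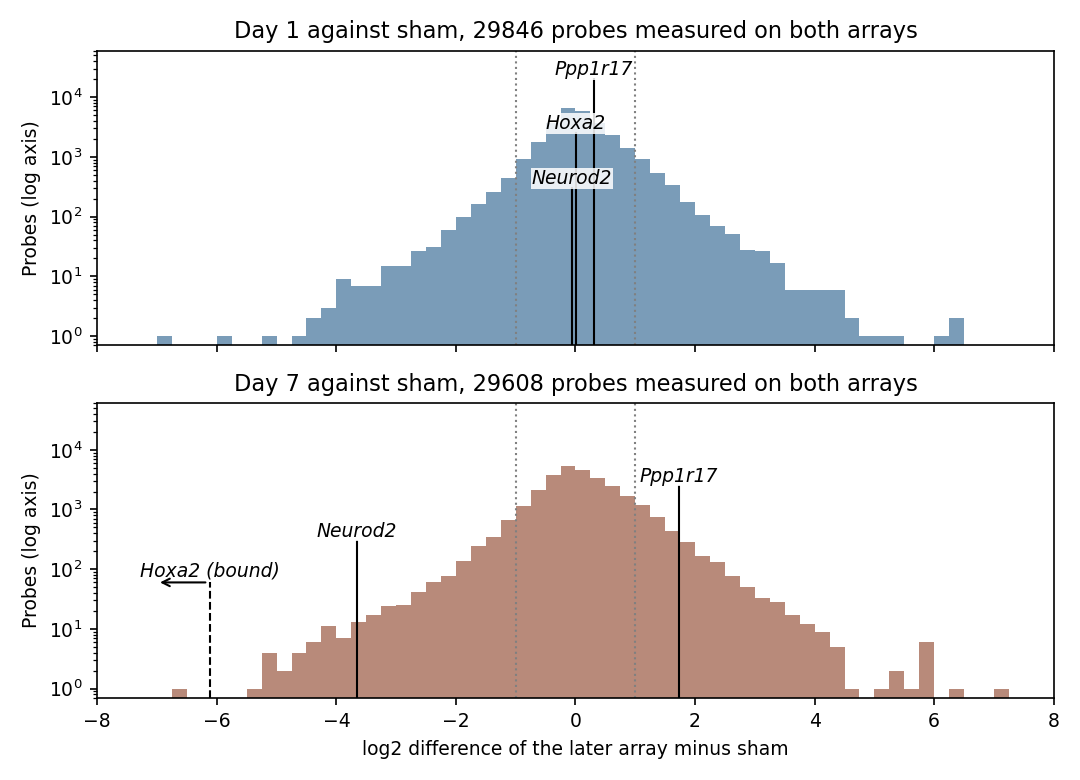
Numbers of probes (y axis, log scale) by log2 difference (x axis, bins of 0.25) at day 1 minus sham and at day 7 minus sham, with member probes as labelled lines and 2-fold as dotted lines. At day 1 all 3 compared members lie inside 2-fold, and at day 7 Neurod2 is at -3.66, Ppp1r17 at 1.73 and Hoxa2 beyond its bound of 69.5-fold lower (dashed line with arrow).

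For Hoxa2 and Neurod2 the 2 steps were unlike, with sham and day 1 close together and day 7 apart. Over all probes that sequence was uncommon, but the members were chosen with earlier results known, so its rarity is a description only. Of 26416 probes within 2-fold of sham at day 1, 788 (2.98%) were not well above background at day 7. Of the 25568 that were measured at day 7, 4.19% were at least 2-fold lower than sham and 7.66% at least 2-fold higher. Both comparisons use the same sham array, so its value for a probe enters both differences.

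The genes with the most similar pair of differences (day 1 minus sham and day 7 minus sham) were found by Euclidean distance over the 3 arrays, among 6047 named genes measured on all of them. Nearest to Neurod2 were Mdh1, cytosolic malate dehydrogenase (-0.079 and -3.15, distance 0.51), and Cmtr1, an mRNA cap methyltransferase (-0.62 and -3.80, distance 0.58). Nearest to Ppp1r17 were Casp1, a caspase of inflammation (0.26 and 1.71, distance 0.055), and Ccl3, a chemokine (0.26 and 1.67, distance 0.081). With 3 arrays a likeness of this kind is a description of 2 numbers per gene.

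The other cerebellar markers did not follow the members in one direction. Counts detected in this and later lists stand beside the shares of all non-control spots well above background. These were 81.3% in sham, 77.3% at day 1 and 76.9% at day 7, and the detection limit was lowest in sham. Of 25 granule cell markers listed (the list includes Neurod1, Neurod2 and Gabra6), 17 had a probe, of which the sham array detected 15, the day 1 array 12 and the day 7 array 12. Against sham, 11 were measured at day 7, of which 1 was at least 2-fold higher and 1 lower, with a median of 0.16, against 11.1% higher and 5.73% lower among 6261 named genes and a median of 0.048. The lower one was Neurod2 itself and the higher one Barhl1 (1.12), a homeobox gene of granule cell precursors. At day 1, 2 of 11 were higher and none lower, the median being -0.064, against 8.26% and 4.37% of 6292 genes and a median of 0.0011. At day 7 against day 1, 1 of 11 was higher and 2 were lower, against 6.56% and 5.32% of 6142 genes. The 2 higher at day 1 were Pax6 and Zic1, transcription factors of the granule lineage, both at 1.16. Their part in any difference of the members was not tested.

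Zic1 was higher at day 1 and lower at day 7 than in sham. Its intensity came to 809 in sham, 1666 at day 1 and 97.3 at day 7, the last not well above background, so it was at least 6.64-fold lower at day 7 than in sham. Slc17a7, the vesicular glutamate transporter of granule cells, had 140 in sham, 94.6 at day 1 and 96.7 at day 7 and was well above background in sham only. Grin2c, an NMDA receptor subunit of granule cells measured on 10 spots, was at -0.089 at day 1 and 0.16 at day 7 in log2 difference from sham. The list's summed level, as multiples of the 75th percentile over its 16 unsaturated probes, came to 11.7 in sham, 11.3 at day 1 and 13.7 at day 7. Reln, the extracellular protein reelin, moved that sum most at day 7, and without it the sum came to 6.48 in sham, 6.45 at day 1 and 5.55 at day 7. Slc17a7 and Grin2c were picked for description after their values were seen.

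Of 28 Purkinje cell markers listed (Ppp1r17, Pcp2 and Car8 among them), 20 had a probe, of which the sham array detected 19, the day 1 array 16 and the day 7 array 17. Relative to sham, 4 of 17 at day 7 were at least 2-fold higher and 1 lower, with a median of 0.33, where all named genes had 11.1% higher and 5.73% lower. The highest were Nrgn, neurogranin (3.32), Itpka, an inositol trisphosphate kinase (2.22), and Ppp1r17. Nrgn had an intensity of 1627 in sham, 1499 at day 1 and 16187 at day 7, a course like that of Ppp1r17 in direction. It is a strong marker of forebrain neurons and not specific to Purkinje cells, yet it counts among the 4 and in the list's sum. On day 1 there were 3 of 16 higher, none lower, and a median of 0.28 (8.26% and 4.37% of all named genes), led by Stk17b (1.82), a serine/threonine kinase, and Plcb3 (1.63), a phospholipase C. The core Purkinje genes Pcp4 (0.28), Calb1 (0.75 by its brightest probe and -0.39 to 0.12 by others) and Aldoc (-0.41) were within 2-fold at day 7. Itpr1, the IP3 receptor to which Car8 protein binds, gave 0.68 by its brightest probe and 1.76 by the other on 10 spots. These 4 were also chosen after their values were seen. The summed level of the 20 probes came to 23.9 in sham, 23.2 at day 1 and 27.3 at day 7, and without Pvalb, parvalbumin, which moved it most, to 14.6 in sham, 15.2 at day 1 and 21.7 at day 7.

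Markers of other positions were sparse on the named part of the array. The counts in these small lists stand beside shares over all named genes of 8.26% (higher) and 4.37% (lower) on day 1, and 11.1% and 5.73% on day 7. Of 26 patterning factors of the hindbrain and midbrain, 6 had a probe. Of 3 measured at day 7 against sham, 1 was higher, namely Egr2 (2.86), a hindbrain segment factor that is also an activity gene. Their median was 0.59 at day 7 and -0.32 over 2 genes at day 1, neither of which was past 2-fold. Of 22 forebrain position markers 8 had a probe, and 2 of 5 measured were higher, none lower, at day 7 against sham (median 0.65), namely Lhx9 (3.07), a LIM homeobox factor, and Lef1 (1.81). At day 1, 1 of 5 was higher, Lhx9 at 1.29, with a median of 0.61. Six3 and Dlx5, forebrain homeobox genes, were not well above background on any array. The 4 genes with a probe among 10 markers of further cerebellar cells gave 3 measured at either day, none past 2-fold, with medians of 0.055 at day 1 and 0.31 at day 7.

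The labelled tissue was described by 14 genes listed as markers of vestibular nucleus neurons, all of which had a probe. Several are shared with other neurons, Nefl and Nefm being general neuronal markers too, so their detection cannot check the dissection. The number detected came to 14 in sham, 13 at day 1 and 13 at day 7. Slc17a6, the glutamate transporter of brainstem excitatory neurons, was bright on all 3 arrays, with a log2 difference of 0.18 at day 7 against sham. Slc32a1, the transporter that loads GABA and glycine into vesicles, lay near the scanner's ceiling on all 3 arrays (60647 in sham, 59369 at day 1 and 59792 at day 7), so its difference is not read. Day 7 had 7 of 13 genes 2-fold lower and 2 higher than sham, with a median of -1.17, whereas 5.73% of all named genes were lower and 11.1% higher. Cacna1a (-6.70), Slc6a5 (-5.26) and Gad1 (3.39) were farthest from 0. Cacna1a rested on 1 probe on 1 spot, with 22332 in sham, 190 at day 1 and 214 at day 7. Its later values were not far above the detection limits of 109 at day 1 and 122 at day 7. The 3 Gad1 probes disagreed: another gave 1.59, and the remaining one was at least 1.05-fold lower at day 7 than in sham, with a signal not well above background at day 7. At day 1, 2 of 13 were lower and 1 higher, with a median of -0.091 (4.37% and 8.26% of all named genes), namely Cacna1a (-6.76), Esrrg (-1.38) and Gad2 (1.16). The nuclear receptor Esrrg then was at least 13.2-fold lower at day 7 than in sham. Slc6a5, the glycine transporter, had 7763 in sham, 6596 at day 1 and 202 at day 7, so it shared with Neurod2 and Hoxa2 the low day 7 value after 2 near-equal ones. The summed level of the list, Slc32a1 included, came to 48.9 in sham, 43.1 at day 1 and 33.4 at day 7. Cacna1a moved it most at day 1, and without it the sum came to 45.0 in sham, 43.0 at day 1 and 33.4 at day 7. Without Nefm, a neurofilament gene that moved it most at day 7, it came to 40.7 in sham, 36.1 at day 1 and 29.8 at day 7.

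Markers of 2 neighbouring structures were counted in the same way, against 8.26% higher and 4.37% lower of all named genes at day 1 and 11.1% and 5.73% at day 7. Cranial motor nucleus markers had 4 of 6 measured higher and none lower at day 1 against sham (median 1.40), and 1 of 7 higher and 3 lower at day 7 (median -0.40). Calcb (2.48), Slc18a3 (1.82) and Slc5a7 (1.78) led at day 1, and Calcb (-2.38), Isl2 (1.67) and Slc18a3 (-1.66) at day 7. The summed level of their 7 probes came to 4.40 in sham, 9.25 at day 1 and 2.92 at day 7. Choroid plexus markers had 1 of 6 higher and 1 lower at day 1 (median 0.17), namely Kcnj13 (1.55) and Ttr (-1.20), and 2 of 5 higher and none lower at day 7 (median 0.30), namely Sostdc1 (1.86) and Folr1 (1.72). Their summed level over 10 probes came to 3.75 in sham, 2.55 at day 1 and 3.14 at day 7, and 3 of the 10 were at background on all arrays. Without Enpp2, autotaxin, which moved it most, that sum came to 0.788 in sham, 0.665 at day 1 and 1.36 at day 7. The motor nucleus sum was thus highest at day 1, when the 3 compared members were within 2-fold of sham. The part of these tissues in the member values was not tested.

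**Figure D3:**
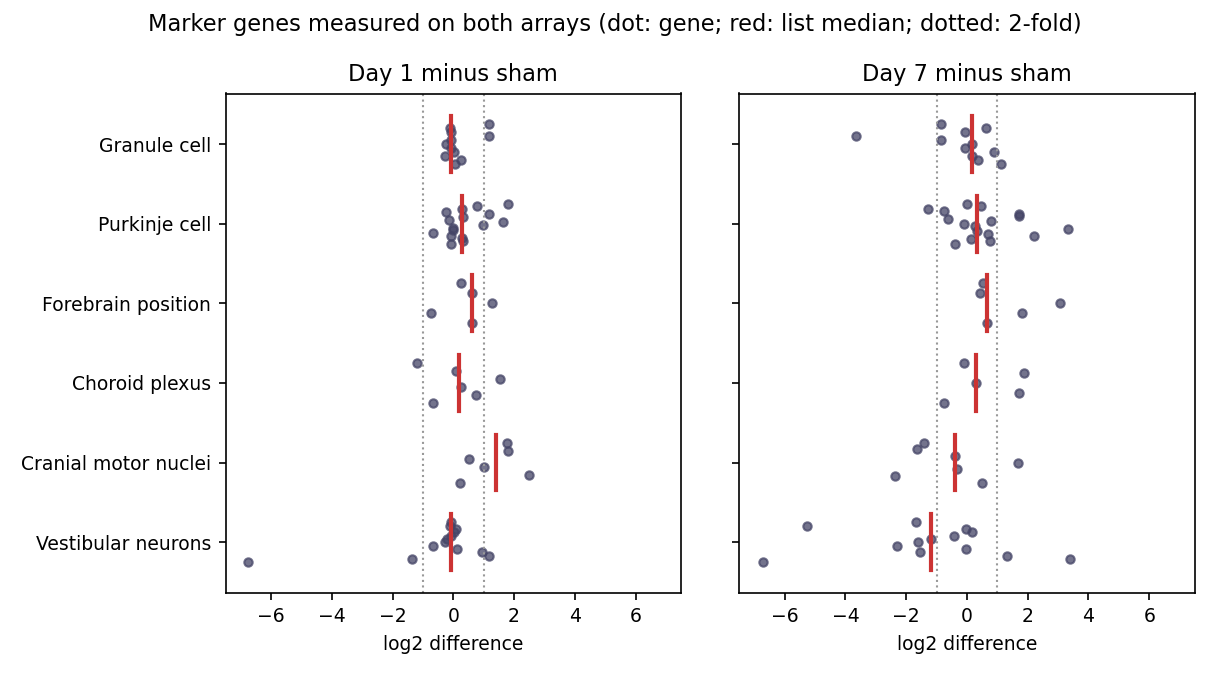
Log2 difference from sham (x axis) at day 1 and at day 7 of each listed gene measured on both arrays (dots), by marker list (rows), with list medians in red and 2-fold as dotted lines. Motor nucleus markers have a median of 1.40 at day 1 and -0.40 at day 7, vestibular neuron markers one of -1.17 at day 7, and the granule and Purkinje cell medians lie within 0.33 of 0 on both days.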

How the data were processed

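Per the file headers, 1 slide held the sham array at position 4, day 1 at 3 and day 7 at 2, all read with Agilent Feature Extraction 10.7.3.1, so slide position and group cannot be told apart. The deposited processed intensity of each spot is linear, background-subtracted by that software and not scaled between arrays. Here log2 intensity minus the array's 75th percentile of non-control spots was used, with outlier-flagged spots (163 in sham, 224 at day 1, 193 at day 7) left out and replicate spots averaged. Of non-control spots, the sham array had 81.3% well above background, the day 1 array 77.3% and the day 7 array 76.9%.

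Probes were named through RefSeq accessions (GRCr8 table), 10768 of 41012. A probe counted as measured if both arrays had it well above background and unsaturated, and a listed gene stood by its brightest probe. For a bound, the dim side was taken as its own signal or the array's detection limit, whichever was larger. The scanner software's spot error covers 1 spot only. With 1 array per group nothing was tested, and the number of arrays limits the precision.

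The authors' series table matched the processed intensity within 0.1 percent for at least 99.7% of its 34687 probes on each array. Members and lists were chosen with earlier results of these data known. From each list, up to 3 genes per day past 2-fold were named. Genes left out of a list's sum, here Reln, Pvalb, Enpp2, Cacna1a and Nefm, were the ones that moved it most, an alternative added after seeing the data. Other genes named are said to be chosen after their values were seen, apart from Hoxb7, Six3, Dlx5, Slc17a6 and Slc32a1, which were also so chosen. Scalings, normexp and loess alternatives used limma 3.58.1, and other steps pandas 2.3.3. The code was tested on simulated data. Some genes of the lists are not reported here by name.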

Additional observations from a re-analysis of the deposited data

Results flagged for a closer look

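Of the genes named, 3 motor nucleus markers were at least 2-fold above sham at day 1 and at least 2-fold below it at day 7. Zic1 of the granule cell list did so too (1.16 at day 1, at least 6.64-fold lower at day 7). No member gene did so. The named genes were mostly picked for their distance from 0, and the share of all genes with this course was not counted. The log2 difference of day 7 minus day 1 was -4.87 for Calcb, a calcitonin gene-related peptide, -3.47 for Slc18a3, the vesicular acetylcholine transporter, and -3.21 for Slc5a7, the choline transporter. Calcb had an intensity of 1141 in sham, 5881 at day 1 and 218 at day 7. With 1 array per group the difference between the days was not tested.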

How the results depend on the processing

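The log2 difference at day 7 against sham ranged from -3.79 to -3.22 for Neurod2 and from 1.60 to 1.82 for Ppp1r17 over 10 alternatives each (scaling, background correction, signal column, filter, floor, outlier spots), and the bound of Hoxa2 from 5.61 to 6.29 on the log2 scale over 7. The filter, floor and outlier settings could not move Neurod2 or Ppp1r17, each 1 unflagged spot well above background. Keeping outlier spots likewise left the bound of Hoxa2 unchanged. At day 1 against sham the 3 compared members stayed between -0.18 and 0.51. With no filter on dim probes, 1 member probe was 2-fold different at day 1 and 4 were at day 7 against sham, and the members' median was -1.68 for day 7 minus sham and -0.033 for day 7 minus day 1. With signals raised to the lowest well-above-background signal these medians were -0.21 and 0.043, the second of opposite sign to the main -1.09, because the dim probes then enter at the floor. With normexp on the median signal (chosen after seeing the files, as was the plain median signal, in place of 2 planned settings on the mean signal that were not run) the median at day 7 against sham was -0.73. The main medians rest on 3 genes at day 1 and 2 at day 7. At a 3-fold threshold 1 probe instead of 2 was different at day 7 against day 1. The median over all probes was 0.028 for day 7 minus sham and -0.099 under median scaling, 0.026 for day 1 minus sham and -0.093 without scaling, and 0.012 for day 7 minus day 1 and 0.13 without scaling. No paired analysis was possible because each group had 1 array. Dim probes limit the reading of Neurod1, Car8 and Gabra6. At day 7 against sham, 26 of 89 genes past 2-fold by their brightest probe were also past it in the same direction by the next probe, and the members have no second probe.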

Other observations

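General markers of neurons and glia were mostly within 2-fold of sham. Of 9 general neuronal markers measured, none was past 2-fold at day 1 (median 0.051) and 2 were lower at day 7 (median -0.26), Nefl (-1.61) and Nefm (-1.17), both neurofilament subunits that the vestibular neuron list also holds. Oligodendrocyte and myelin markers had 1 of 14 lower at day 1, Ermn (-1.01), and 2 of 13 lower at day 7, Mbp (-1.29) and Aspa (-1.20), with medians of -0.16 and -0.33. Astrocyte markers had 1 of 8 higher at day 1, the calcium-binding protein S100b (3.19), and 2 of 8 higher at day 7, S100b (1.89) and the water channel Aqp4 (1.25), with medians of -0.0046 and 0.12. Among all named genes, day 1 had 8.26% higher and 4.37% lower than sham. For day 7 these shares were 11.1% and 5.73%.

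Few bright probes were at background on another array. Of 10264 probes above the 75th percentile in sham, 5 were not well above background at day 1, and of 10255 above it at day 1, 8 were not at day 7, with Hoxa2 as the sole named gene among those 8. Of 10263 above it at day 7, 3 were not well above background at day 1. All probes above it at day 1 or at day 7 were well above background in sham.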
